A study of Homo sapiens with 15 samples.

Results

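PCK1, PCK2, PC and FBP1 encode the enzymes that carry carbon from pyruvate back toward glucose, and their transcripts are described here in cultured PSN-1 cells, 4 genes of 26485 counted. PCK1 was chosen because it was low after siRNA against MondoA and after the drug SBI-477 but not after siRNA against MLX in these same libraries, so its values in those contrasts are a description and carry no test. PCK2, PC and FBP1 were added as its pathway neighbours and were tested. The PSN-1 line derives from a human pancreatic ductal adenocarcinoma (PDAC) and was grown in RPMI with serum. In the first experiment transfection for 72 hours was with siRNA that targets MondoA, the product of MLXIP (siMondoA), with siRNA against its DNA-binding partner MLX (siMLX) or with a control siRNA (siControl). In the second, other cells received SBI-477, which the submitters call an inhibitor of MondoA, or its vehicle DMSO, also for 72 hours. Each of the 5 groups had 3 libraries, 15 in all, and every group is the same single line, with no gene deletion among the treatments. The sources used here give neither the siRNA sequences nor the drug dose. They also do not say whether replicates came from separate cultures, so a p-value speaks only of the spread among the libraries at hand, and that spread may be technical.

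Gluconeogenesis is the making of new glucose from lactate, amino acids and glycerol, and its complete form is a task of liver, kidney cortex and, in part, intestine. Pyruvate carboxylase (PC) adds a carboxyl group to pyruvate in the mitochondrion to give oxaloacetate, and phosphoenolpyruvate carboxykinase (PEPCK) turns oxaloacetate into phosphoenolpyruvate, in the cytosol as the PCK1 product or in the mitochondrion as the PCK2 product. Fructose-1,6-bisphosphatase (FBP1) works further up, where it undoes the phosphofructokinase step, and glucose-6-phosphatase releases free glucose. In cells that do not export glucose the same enzymes also feed the tricarboxylic acid cycle, serine and the glycerol backbone of lipids. PCK1 is a classic case of control by transcription, raised by glucagon through cyclic AMP and by glucocorticoids and lowered by insulin, while PCK2 is known as a target of ATF4, the factor that carries the integrated stress response. MondoA is a glucose-responsive transcription factor that binds DNA as a pair with MLX.

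The siRNA libraries held 11227343 to 14731691 counts and the drug libraries 23315440 to 30480362. Levels are CPM, counts scaled to library size with TMM factors. The words rose and fell are kept for genes with an adjusted p under 0.05 in edgeR's quasi-likelihood test (Benjamini-Hochberg over all genes tested). The cells carried their labelled identity: the 8 epithelial and ductal markers, led by keratins KRT8 and KRT18, summed to 1477 CPM or more in every library, and none of them was at 0 throughout. Of the markers of tissues that make glucose, albumin (ALB) reached at most 2 counts and transthyretin (TTR) 0 counts in any library. The kidney transporters SLC22A6 and SLC22A8 were at 0 in all 15 libraries, and the kidney marker CUBN reached 18 counts (1.43 CPM). Of those lists SERPINA1 and AQP1 were present, at 55.1 to 174 CPM and 6.28 to 100 CPM, and gave most of their sums. The hepatocyte list summed to 149 to 174 CPM in siMondoA, 72.5 to 161 CPM in siMLX and 110 to 168 CPM in siControl. In the drug experiment it summed to 55.3 to 98.0 CPM in SBI-477 and 59.2 to 115 CPM in DMSO. SERPINA1, the 1 gene of it tested, was not called after siMondoA (0.18 ± 0.25, edgeR adjusted p = 0.622). A pair of drug libraries stood apart. The log2 fold changes in the authors' deposited table were returned by DESeq2 to a median absolute difference of 1.89e-07 when the libraries labelled DMSO replicate 2 and SBI-477 replicate 2 were exchanged, against 0.196 with the labels as given, so drug results are given with all 6 libraries as labelled and from replicates 1 and 3. The siMLX replicate 2 library also stood apart from its group in stress genes, and results that rest on it are given without it.

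PCK1 (chr20:57561080-57568112, plus strand; gene positions here are those of GENCODE v29, build GRCh38), the cytosolic PEPCK, was nearly lost after siMondoA. It was at 4.22, 0.954 and 2.72 CPM in siMondoA replicates 1, 2 and 3, at 108, 69.0 and 154 CPM in siMLX, and at 62.2, 134 and 118 CPM in siControl. The siMondoA libraries lay far below the others with no overlap, whereas siMLX and siControl overlapped. As counts, these were 54, 12 and 34 in siMondoA against 700, 1727 and 1807 in siControl, so PCK1 was still above the floor of 3 counts in each siMondoA library. The log2 fold change was -5.31 ± 0.49 (SE) for siMondoA against siControl, the 3rd lowest of 13001 genes fitted, and 0.08 ± 0.37 for siMLX against siControl. Set directly against each other, siMondoA was lower than siMLX by a log2 fold change of -5.38 ± 0.49, the lowest of the 13001 genes. These 3 values share libraries and the gene was selected on them, so they are 1 description and not 3 separate results. In bulk RNA, fewer cells carrying a transcript and less of it per cell cannot be told apart. Of the 7 kidney proximal tubule markers, 1 passed the filter, the water channel AQP1, which fell in siMondoA with PCK1 (-1.83 ± 0.53, edgeR adjusted p = 0.0288). The list summed to 7.71 to 35.6 CPM in siMondoA, 28.8 to 83.3 CPM in siMLX and 55.6 to 100.2 CPM in siControl. Its genes SLC22A6 and SLC22A8 were at 0, LRP2 and SLC34A1 reached 1 count, SLC5A2 3 counts and CUBN 18 counts (1.43 CPM). The part of this list in the PCK1 result was not tested. Fibroblast markers summed to 135 to 218 CPM in siMondoA, 227 to 355 CPM in siMLX and 234 to 314 CPM in siControl, with 2 of 6 tested lower in siMondoA, COL1A2 (-3.91 ± 0.56, edgeR adjusted p = 0.00161) and PDGFRB (-1.93 ± 0.24, edgeR adjusted p = 0.000782), and THY1 at no more than 1 count. Pancreatic acinar and islet markers summed to 27.1 to 43.8 CPM in siMondoA, 6.4 to 23.4 CPM in siMLX and 29.3 to 80.9 CPM in siControl, with 1 of 2 tested lower, CPA1 (-2.80 ± 0.61, edgeR adjusted p = 0.00959), and INS, SST and CELA3A at 0. Leukocyte markers summed to 72.3 to 93.1 CPM in siMondoA, 69.6 to 100.2 CPM in siMLX and 55.2 to 68.9 CPM in siControl; of 3 tested, CD68 was higher (1.06 ± 0.16, edgeR adjusted p = 0.00178) and CD14 lower (-0.47 ± 0.13, edgeR adjusted p = 0.0233). Of the 8 epithelial and ductal markers, all tested, CDH1 was higher in siMondoA (2.38 ± 0.37, edgeR adjusted p = 0.00215). MUC1 was lower there (-0.67 ± 0.22, edgeR adjusted p = 0.0469), and 0 of the 8 were called after siMLX. After siMLX, COL1A2 (-2.43 ± 0.50), PDGFRB (-1.20 ± 0.23) and CPA1 (-2.17 ± 0.56) were also called lower. DCN (2.80 ± 0.37) and COL1A1 (0.94 ± 0.24) were called higher after siMLX. Of all genes tested, 14.2% rose and 12.9% fell after siMondoA, and 3.72% and 4.69% after siMLX. The part of these lists was not tested either. Stress genes were also high in siMondoA. They were high in siMLX replicate 2 as well, where their median was 2.65 log2 units above the siControl mean and PCK1 was at 69.0 CPM. The part of the stress state in the PCK1 result was not tested.

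In the drug experiment PCK1 was lower from the start and split within each group. It was at 6.16, 16.8 and 1.15 CPM in SBI-477 replicates 1, 2 and 3, against 51.9, 6.26 and 61.1 CPM in DMSO. As labelled the groups overlapped, because the library labelled SBI-477 replicate 2 was above the library labelled DMSO replicate 2. In replicates 1 and 3 the SBI-477 libraries were both below the DMSO libraries. The log2 fold change was -2.31 ± 0.95 over the 6 libraries as labelled, the lowest of 14023 genes fitted, and -3.87 ± 0.40 in replicates 1 and 3, the 3rd lowest of 14232. The authors' deposited table gives -3.24 for the drug and -5.45 and 0.08 for siMondoA and siMLX. The difference between the DMSO and siControl levels cannot be told apart from the difference between experiments.

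**Figure D1:**
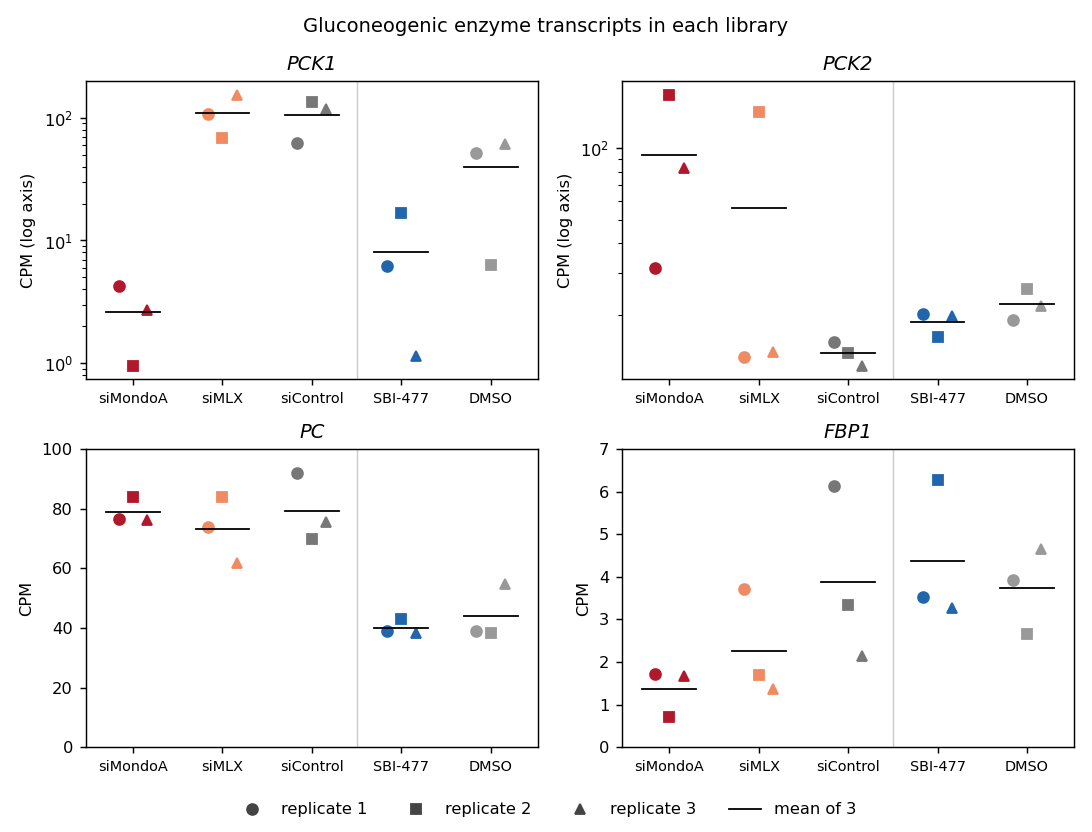
Transcript level of each enzyme in every library, in CPM (log axis for PCK1 and PCK2, linear from 0 for PC and FBP1), with 3 libraries per group and a bar at their mean. Among the siRNA groups PCK1 was lowest in siMondoA (0.954 to 4.22 CPM), a range that overlaps that of SBI-477 (1.15 to 16.8 CPM). PCK2 was high in all siMondoA libraries and in siMLX replicate 2 (142 CPM), and PC stayed between 61.9 and 91.9 CPM in every siRNA library.

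PCK2 (chr14:24094053-24110598, plus strand), the mitochondrial PEPCK, went the opposite way after siMondoA. It was at 31.6, 168 and 82.9 CPM in siMondoA, at 13.4, 142 and 14.0 CPM in siMLX, and at 15.6, 13.9 and 12.3 CPM in siControl. Every siMondoA library was above every siControl library, while in siMLX replicate 2 was high and the other 2 libraries lay within the range of siControl. PCK2 rose in siMondoA by a log2 fold change of 2.76 ± 0.88 (edgeR adjusted p = 0.0413). With the replicate number as a block it was 2.36 ± 0.60 (edgeR adjusted p = 0.0151). The authors' deposited table gives 2.47 with an adjusted p-value of 0.00294. Of the 13001 genes tested in this comparison, 14.2% rose and 12.9% fell, and PCK2 was the only one of the 3 tested enzymes called. The call was close to the threshold: it held without siMondoA replicate 1 (3.18, edgeR adjusted p = 0.0204) and was lost without siMondoA replicate 2 (2.04, edgeR adjusted p = 0.136), without siMondoA replicate 3 (2.84, 0.078) or without siControl replicate 1, 2 or 3 (2.84, 2.76 and 2.68, with edgeR adjusted p of 0.108, 0.12 and 0.116).

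After siMLX, PCK2 had a log2 fold change of 2.03 ± 0.87 against siControl that was not called (edgeR adjusted p = 0.171). With the replicate number as a block it was 1.20 ± 0.62 (edgeR adjusted p = 0.225), and the authors' deposited table gives 1.01. In this comparison 3.72% of genes rose and 4.69% fell, 1094 genes in all, and 1815 were called with the block. Without siMLX replicate 2, and with no block, the PCK2 value was -0.02 ± 0.52. The difference between siMondoA and siMLX was 0.73 ± 0.81 (edgeR adjusted p = 0.578; 6.66% of genes were higher and 6.21% lower in siMondoA), and 2.78 ± 0.54 without siMLX replicate 2 (edgeR adjusted p = 0.00609). The values of PCK2 after siMLX thus rest on that 1 library.

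PCK2 was not called after the drug. It was at 20.2, 16.2 and 19.9 CPM in SBI-477 against 19.2, 25.9 and 21.9 CPM in DMSO, with overlapping groups. The log2 fold change was -0.25 ± 0.16 as labelled (edgeR adjusted p = 1), with a 95% interval from -0.55 to 0.06, and -0.04 ± 0.12 in replicates 1 and 3 (edgeR adjusted p = 0.858), with an interval from -0.26 to 0.19. As labelled, 0% of 14023 genes were called in either direction by edgeR, and 409 had an unadjusted p under 0.05; in replicates 1 and 3, 9.07% rose and 9.02% fell. Taken as an interaction, the drug effect minus the siMondoA effect on PCK2 was -2.99 ± 1.01 and was not called (edgeR adjusted p = 0.0781; 3.84% of genes were higher and 3.83% lower in this difference). With drug replicates 1 and 3 it was -2.77 ± 1.20 (edgeR adjusted p = 0.142; 6.02% higher and 5.52% lower).

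**Figure D2:**
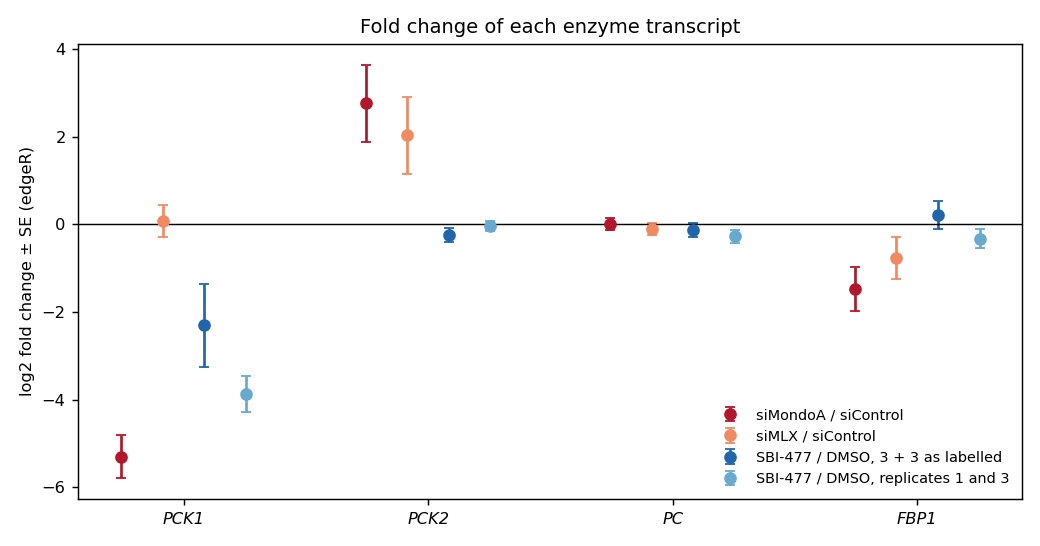
Fitted log2 fold change of each enzyme with its standard error (y axis), for siMondoA and siMLX over siControl and for SBI-477 over DMSO with all libraries as labelled or with replicates 1 and 3. PCK1 and PCK2 lie on opposite sides of 0 after siMondoA (-5.31 and 2.76), and PC lies near 0 in each comparison.

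Scaled to exon length, the pair of PEPCK transcripts changed places. PCK1 made up 7.57%, 0.348% and 1.98% of the summed PCK1 and PCK2 level per kilobase in siMondoA, 83.1%, 23.0% and 87.1% in siMLX, and 71.1%, 85.6% and 85.5% in siControl. PCK2 was the larger share in every siMondoA library and in siMLX replicate 2, and PCK1 in the remaining siRNA libraries. The summed level was 8.17, 40.2 and 20.2 CPM per kilobase in siMondoA against 12.8, 22.9 and 20.2 in siControl, so the sums overlapped although the composition did not. In the drug experiment the PCK1 share was 15.8%, 38.9% and 3.44% in SBI-477 against 62.4%, 12.9% and 63.1% in DMSO, where the sum was 5.73, 6.34 and 4.91 CPM per kilobase in SBI-477 against 12.2, 7.09 and 14.2 in DMSO. The summed level of each SBI-477 library was below that of each DMSO library, also as labelled. Because PCK1 was selected on these contrasts, the shares are given with no test.

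**Figure D3:**
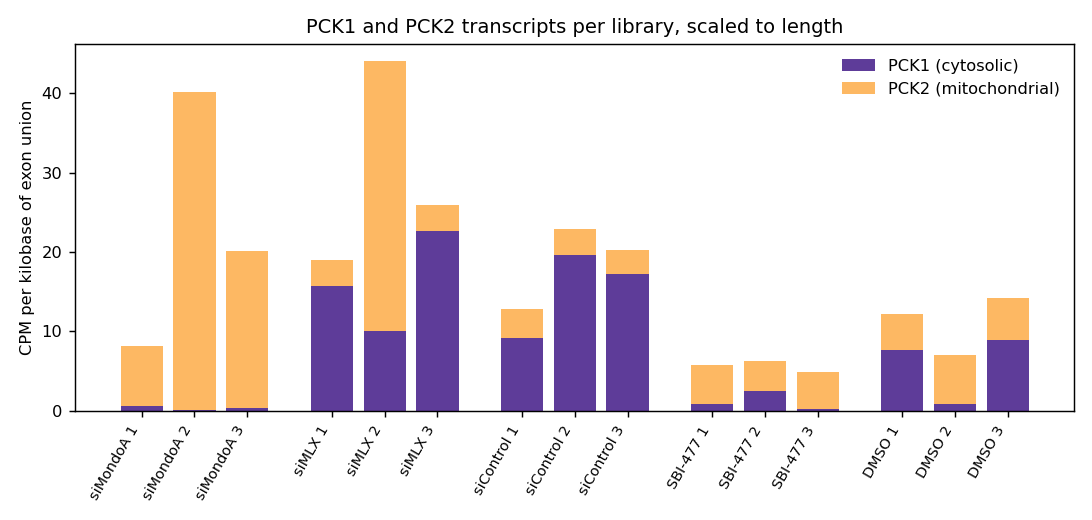
PCK1 and PCK2 level per library, stacked, in CPM per kilobase of exon union. In siControl the bars are mostly PCK1 (71.1% to 85.6%), in siMondoA almost wholly PCK2, and in SBI-477 both the PCK1 part and the whole bar are small.

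PC (chr11:66848233-66958376, minus strand), the biotin enzyme that makes oxaloacetate for the PEPCK step, was not called in any comparison. It was at 76.5, 84.0 and 76.1 CPM in siMondoA, at 73.9, 83.8 and 61.9 CPM in siMLX, and at 91.9, 69.7 and 75.6 CPM in siControl. All 3 groups overlapped. The log2 fold change was 0.00 ± 0.14 in siMondoA (edgeR adjusted p = 0.991, 95% interval from -0.27 to 0.27) and -0.11 ± 0.14 in siMLX (edgeR adjusted p = 0.664, interval from -0.38 to 0.16). In the drug experiment it was at 38.9, 43.0 and 38.4 CPM in SBI-477 against 39.0, 38.2 and 54.6 CPM in DMSO, again overlapping. The log2 fold change was -0.13 ± 0.16 as labelled (edgeR adjusted p = 1, interval from -0.44 to 0.17). In replicates 1 and 3 it was -0.28 ± 0.14 (edgeR adjusted p = 0.193), with an interval from -0.551 to -0.0024. That interval leaves out 0 although the unadjusted edgeR p was 0.0773, because it is built from the SE alone. The exons of PC share 621 bases with LRFN4 on the opposite strand, and the sources used here do not say whether counting used strand. LRFN4 was at 106 to 114 CPM in siMondoA and 97.0 to 115 CPM in siControl, and reads of the shared stretch cannot be told apart.

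FBP1 (chr9:94603133-94640249, minus strand), the bisphosphatase, was scarce in every group. It was at 1.72, 0.715 and 1.68 CPM in siMondoA, at 3.71, 1.69 and 1.37 CPM in siMLX, and at 6.13, 3.33 and 2.15 CPM in siControl. The siMondoA libraries were all below the siControl libraries, and those of siMLX overlapped both. They rested on 22, 9 and 21 counts in siMondoA and 69, 43 and 33 in siControl, so counting error is large. The log2 fold change in siMondoA was -1.47 ± 0.50 and just missed the threshold (edgeR adjusted p = 0.0517); it passed in DESeq2 (-1.49, adjusted p = 0.0202), with no filter on low counts (edgeR adjusted p = 0.0351), when fitted on the 6 siMondoA and siControl libraries alone (edgeR adjusted p = 0.036) and without siControl replicate 3 (-1.77, edgeR adjusted p = 0.0426). With the replicate number as a block it was -1.43 ± 0.35 (edgeR adjusted p = 0.0129). The authors' deposited table gives -1.46 with an adjusted p-value of 0.028. In siMLX it was -0.77 ± 0.48 (edgeR adjusted p = 0.342), and the difference between siMondoA and siMLX was -0.70 ± 0.52 (edgeR adjusted p = 0.393).

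FBP1 was at 3.52, 6.28 and 3.27 CPM in SBI-477 against 3.92, 2.65 and 4.64 CPM in DMSO. The groups overlapped as labelled, and in replicates 1 and 3 both SBI-477 libraries were below both DMSO libraries. The log2 fold change was 0.21 ± 0.32 as labelled (edgeR adjusted p = 1) and -0.33 ± 0.21 in replicates 1 and 3 (edgeR adjusted p = 0.309), so its sign depends on the replicate 2 libraries. In the authors' deposited table it is -0.63 with an adjusted p-value of 0.053. The drug effect minus the siMondoA effect was 1.70 ± 0.64 as labelled (edgeR adjusted p = 0.108) and 1.16 ± 0.65 with drug replicates 1 and 3 (edgeR adjusted p = 0.247). FBP1 shares 283 exon bases with the antisense gene PCAT7, which was at 1.02 to 1.27 CPM in siMondoA and 1.60 to 1.94 CPM in siControl, close to the level of FBP1 itself, so part of the FBP1 count could not be assigned by strand from the sources used here.

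Compared per kilobase, the order of the 4 transcripts differed between groups. In siControl PCK1 (15.3 ± 5.52 CPM per kilobase, SD, n = 3) and PC (13.3 ± 1.94) led and did not differ beyond their spread, followed by PCK2 (3.32 ± 0.385) and FBP1 (2.23 ± 1.18), whose ranges overlap. In siMondoA the order was PCK2 (22.5 ± 16.4), PC (13.3 ± 0.751), FBP1 (0.789 ± 0.327) and PCK1 (0.386 ± 0.24), where PC lay within the spread of PCK2 and the ranges of FBP1 and PCK1 overlapped. In siMLX PCK1 (16.2 ± 6.28), PCK2 (13.5 ± 17.7) and PC (12.3 ± 1.85) were not separable, and FBP1 (1.30 ± 0.73) was lowest on average. In SBI-477 PC (6.76 ± 0.43) led, followed by PCK2 (4.48 ± 0.528), FBP1 (2.51 ± 0.959) and PCK1 (1.18 ± 1.18), of which the last pair overlapped. In DMSO PC (7.41 ± 1.56) was above PCK2 (5.33 ± 0.801) in every library, PCK1 (5.83 ± 4.31) overlapped both, and FBP1 (2.15 ± 0.579) was lowest on average. PCK1 moved between the top and the bottom of the set, and PC stayed near the top in all 5 groups.

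In the lists that follow, counts stand beside the share called over all genes, which was 14.2% higher and 12.9% lower after siMondoA, 3.72% and 4.69% after siMLX, and 9.07% and 9.02% in drug replicates 1 and 3. With all 6 drug libraries as labelled no gene was called by edgeR, so each drug call below rests on leaving out the replicate 2 libraries, and the value as labelled is given with it. The rest of the gluconeogenic bypass held few calls. Of its 8 genes other than PCK1, 5 passed the filter on low counts in the siRNA libraries; FBP2, the muscle bisphosphatase, and the glucose-6-phosphatase genes G6PC and G6PC2 did not, and G6PC reached at most 3 counts and FBP2 at most 5 in any library while G6PC2 had 0 counts. The ubiquitous phosphatase G6PC3 was present, at 50.1 ± 5.27 CPM in siMondoA and 59.2 ± 6.28 CPM in siControl (SD, n = 3 each). After siMondoA, 1 of the 5 rose (PCK2) and 1 fell, SLC37A4, the transporter that brings glucose 6-phosphate to the phosphatase, by -0.75 ± 0.22 (edgeR adjusted p = 0.0313). SLC37A4 was at 11.7 ± 3.54 CPM in siMondoA against 19.6 ± 1.43 CPM in siControl. Without siMondoA replicate 2, or without siControl replicate 1 or 2, neither direction held a call. The median of the 5 was -0.24, against 0.00 over all 13001 genes; none was called after siMLX or the drug.

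The reversible enzymes that both directions of the pathway share were not called after either siRNA. Of 10 tested after siMondoA, from GPI to the enolases, 0 rose and 0 fell by edgeR (median -0.25), and after siMLX 0 of 10 were called. In drug replicates 1 and 3, 2 of 11 rose and 1 fell, against 9.07% and 9.02% of all genes: the aldolase ALDOC at -0.94 ± 0.12 (edgeR adjusted p = 0.00201; -0.64 ± 0.21 as labelled), with TPI1 and GAPDH higher by 0.29 ± 0.08 and 0.33 ± 0.09 (0.05 ± 0.15 and 0.10 ± 0.16 as labelled). ALDOC was also lower in siMondoA than in siMLX, by -1.42 ± 0.32 (edgeR adjusted p = 0.0183). Among 9 tested genes that drive glycolysis forward, hexokinase HK2 rose by 0.62 ± 0.13 after siMondoA (edgeR adjusted p = 0.00945) and PFKFB3, which makes the activator of phosphofructokinase, fell by -0.50 ± 0.15 (edgeR adjusted p = 0.0351); the count of 1 that fell was 0 without any 1 library but siMondoA replicate 1. In drug replicates 1 and 3 a different pair of that list was called, PKM (0.36 ± 0.10, and 0.21 ± 0.13 as labelled) and PFKFB2 (-0.52 ± 0.10, and -0.17 ± 0.20 as labelled). PGAM2, HK3, PKLR and PFKFB1 were below the filter in the siRNA libraries.

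Genes around pyruvate and oxaloacetate, the substrates of PC and PEPCK, were called about as often as genes at large after siMondoA. After siMondoA, 3 of 27 rose and 3 fell (median -0.19), each no larger a share than over all genes (14.2% and 12.9%), and the 3 that rose were 1 without siMondoA replicate 2 or any 1 siControl library, while 2 fell without any of these or siMondoA replicate 3; LDHB and GPT were below the filter. PDK4, the kinase that shuts pyruvate dehydrogenase, fell by -1.56 ± 0.19 (edgeR adjusted p = 0.000608), and lactate dehydrogenase LDHA by -1.02 ± 0.23 (edgeR adjusted p = 0.0105). The transaminases GPT2 (1.68 ± 0.40, edgeR adjusted p = 0.0139) and GOT1 (1.08 ± 0.27, edgeR adjusted p = 0.0175), which exchange pyruvate and oxaloacetate with amino acids, rose. PDK4 also fell after siMLX (-1.03 ± 0.18, edgeR adjusted p = 0.00972) and in drug replicates 1 and 3 (-1.07 ± 0.18, edgeR adjusted p = 0.00511; -0.70 ± 0.27 as labelled, edgeR adjusted p = 1). It is a gene of this list called lower in all 3 of these comparisons, of which the siRNA pair shares its control libraries. Citrate synthase (CS) fell after siMLX (-0.67 ± 0.10, edgeR adjusted p = 0.00465) and was higher in siMondoA than in siMLX (0.67 ± 0.10, edgeR adjusted p = 0.0032). In drug replicates 1 and 3, 6 of 28 rose and 3 fell, against 9.07% and 9.02% of all genes, led by PDK1 (-0.88 ± 0.10) and by the pyruvate carrier subunits MPC2 (0.50 ± 0.09) and MPC1 (0.53 ± 0.10). As labelled these were -0.43 ± 0.29, 0.01 ± 0.26 and 0.04 ± 0.26, none of them called.

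PCK1 also supplies glycerol 3-phosphate for triglyceride in fat tissue, so genes of glyceroneogenesis and glycerol handling were listed. After siMondoA, 5 of 13 rose and 2 fell, against 14.2% and 12.9% of all genes, with a median of 0.39; GPD1 and AQP7 were below the filter. The last enzyme of triglyceride synthesis, DGAT2, rose by 1.32 ± 0.29 (edgeR adjusted p = 0.0102), the glycerol channel AQP3 by 1.02 ± 0.24 (edgeR adjusted p = 0.0137) and the acyltransferase AGPAT2 by 0.56 ± 0.14 (edgeR adjusted p = 0.0159), while GPD1L fell by -0.44 ± 0.11 (edgeR adjusted p = 0.0172). DGAT2 and AGPAT2 also rose in drug replicates 1 and 3, by 1.40 ± 0.13 and 0.44 ± 0.10 (edgeR adjusted p = 0.000548 and 0.021), where LPIN1 fell (-0.54 ± 0.10, edgeR adjusted p = 0.007), 2 and 1 of 14 against 9.07% and 9.02% of all genes. As labelled, DGAT2 was at 0.52 ± 0.46, AGPAT2 at 0.15 ± 0.18 and LPIN1 at -0.19 ± 0.20, each with an edgeR adjusted p of 1. After siMLX (3.72% and 4.69% of all genes called) 0 of 13 rose and GPD1L (-0.69 ± 0.11) and LPIN1 (-0.82 ± 0.19) fell (edgeR adjusted p = 0.00702 and 0.0292), 1 of them without any 1 library but siMLX replicate 1. The count of 5 after siMondoA was 1 without siControl replicate 2, 3 without siControl replicate 3 or siMondoA replicate 2 or 3, and 6 without siMondoA replicate 1.

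PC belongs with the biotin-dependent carboxylases, and 5 of those fell, PC (0.00 ± 0.14) not among them. After siMondoA, 5 of 10 fell and 0 rose, against 12.9% and 14.2% of all genes: both subunits of propionyl-CoA carboxylase, PCCA (-0.74 ± 0.12, edgeR adjusted p = 0.00316) and PCCB (-0.39 ± 0.11, edgeR adjusted p = 0.0234), both subunits of methylcrotonyl-CoA carboxylase, MCCC1 (-0.64 ± 0.12, edgeR adjusted p = 0.00585) and MCCC2 (-0.39 ± 0.12, edgeR adjusted p = 0.0321), and the acetyl-CoA carboxylase ACACB (-1.21 ± 0.38, edgeR adjusted p = 0.0379), named as a 5th called gene after its value was seen. The list median was -0.35. After siMLX 0 of 10 were called, and PCCA and PCCB were lower in siMondoA than in siMLX (-0.53 ± 0.12 and -0.42 ± 0.11, edgeR adjusted p = 0.0216 and 0.0294), with 0 of these calls left without siMLX replicate 1 or 3 or siMondoA replicate 2 or 3, and 1 without siMondoA replicate 1. In drug replicates 1 and 3 the vitamin transporter SLC5A6 was the 1 of 10 called, higher by 0.35 ± 0.09 (0.26 ± 0.10 as labelled). Without siControl replicate 1 or 2 the count of 5 was 2, and it was 3 without siControl replicate 3 or siMondoA replicate 1 or 2.

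**Figure D4:**
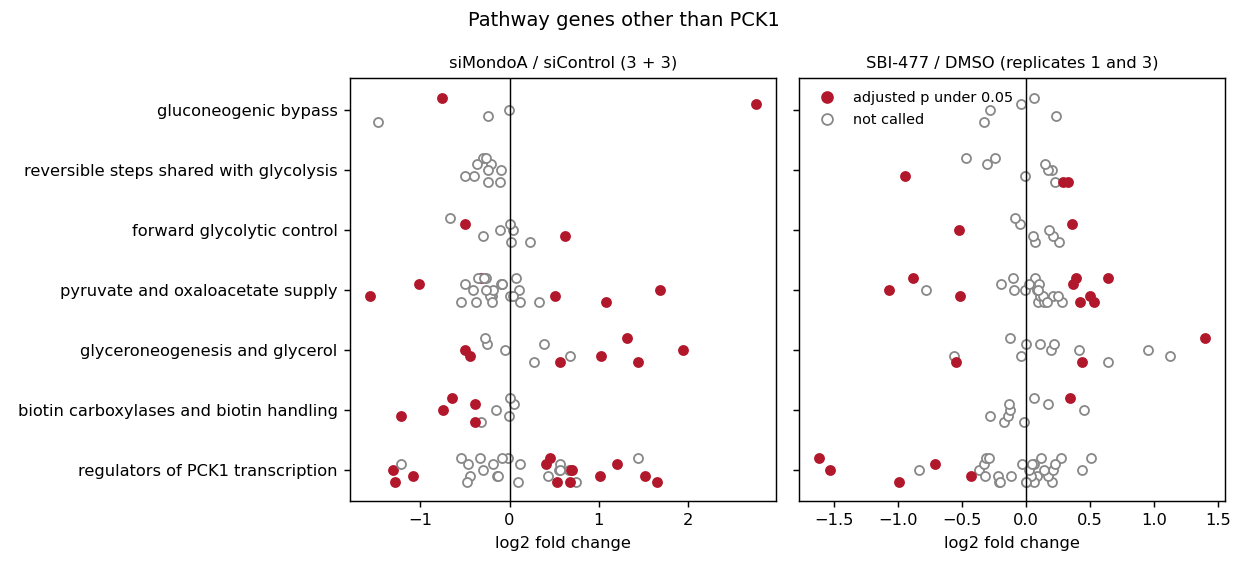
Fitted log2 fold change (x axis) of each tested gene in 7 pathway lists (rows), PCK1 left out, for siMondoA over siControl and for SBI-477 over DMSO in replicates 1 and 3; filled points have an adjusted p under 0.05 and the height within a row has no meaning. Reversible enzymes cluster left of 0 with none filled after siMondoA, and biotin carboxylases have 5 filled points, all below 0.

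The known regulators of PCK1 transcription were called in both directions. After siMondoA, 10 of 34 rose and 3 fell (median 0.26), against 14.2% and 12.9% of all genes, and RARB and FOXA3 were below the filter. TCF7L2, a WNT pathway factor, fell by -1.08 ± 0.13 (edgeR adjusted p = 0.000657) and the orphan receptor NR2F1 (COUP-TFI) by -1.28 ± 0.21 (edgeR adjusted p = 0.00287), whereas the cyclic AMP-responsive factors CEBPB (1.51 ± 0.22, edgeR adjusted p = 0.00161) and CRTC2 (0.68 ± 0.12, edgeR adjusted p = 0.00423), which are known as activators of PCK1 in liver, rose. The count of 10 was 2 to 4 without any 1 of the siControl libraries or of siMondoA replicates 2 and 3, and 11 without siMondoA replicate 1. After siMLX 3 of 34 rose and 2 fell (median 0.02), against 3.72% and 4.69% of all genes, and the 3 were 0 without siControl replicate 1 or 2 and 1 without siControl replicate 3, while 1 fell without any 1 of the 6 libraries. PPARGC1A, the coactivator that drives PCK1 in fasting liver, fell by -3.73 ± 0.59 (edgeR adjusted p = 0.00566), and HNF4A, its nuclear receptor partner, rose by 2.41 ± 0.48 (edgeR adjusted p = 0.0152). PPARGC1A averaged 2.05 ± 1.25 CPM in siMondoA, 0.359 ± 0.237 CPM in siMLX and 4.80 ± 1.92 CPM in siControl, and siMLX held 2 to 7 counts per library. NR4A1, a stress-induced receptor, rose by 1.76 ± 0.34 (edgeR adjusted p = 0.0133) and the thyroid hormone receptor THRB fell by -0.69 ± 0.18 (edgeR adjusted p = 0.0399). NR4A1 also rose after siMondoA (1.20 ± 0.34, edgeR adjusted p = 0.0249), and CEBPB also rose after siMLX (0.79 ± 0.21, edgeR adjusted p = 0.0482). CEBPB was higher in siMondoA than in siMLX by 0.72 ± 0.21 (edgeR adjusted p = 0.0496). In drug replicates 1 and 3, 0 of 33 rose and 5 fell, against 9.07% and 9.02% of all genes, among them SREBF1 (-1.62 ± 0.15), FOXA1 (-1.53 ± 0.15), NR2F1 (-0.99 ± 0.11) and NR4A1 (-0.71 ± 0.13), with edgeR adjusted p of 0.000548, 0.000665, 0.00139 and 0.00782. As labelled these were at -0.57 ± 0.53, -0.24 ± 0.60, -0.39 ± 0.34 and -0.27 ± 0.25, each with an edgeR adjusted p of 1.

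PCK2 varied with the genes of the integrated stress response. The 18 genes of that list had a median log2 fold change of 2.62 after siMondoA. Of these, 15 of 18 were called higher and 0 lower, against 14.2% and 12.9% of all genes. Those higher included ATF4 itself (1.29 ± 0.28, edgeR adjusted p = 0.00948) and SLC3A2 (2.19 ± 0.39, edgeR adjusted p = 0.00398). DDIT4 (1.76 ± 0.34, edgeR adjusted p = 0.00575) and SESN2 (3.44 ± 0.77, edgeR adjusted p = 0.0106) were among them too. The count of 15 was 5 without siControl replicate 1, 6 without siControl replicate 2 or 3, and 9 without siMondoA replicate 2 or 3. Per library, the list's median log2 CPM stood 1.65, 2.92 and 2.64 above the siControl mean in siMondoA replicates 1, 2 and 3, and 0.165, 2.65 and 0.268 above it in siMLX. PCK2 stood 1.18, 3.58 and 2.57 above in siMondoA and -0.04, 3.34 and 0.02 in siMLX. The library order of PCK2 was that of the stress list in siMondoA, and siMLX replicate 2 was high in both. After the drug the list was called in 0 of 17 genes as labelled. In replicates 1 and 3 ATF5 rose (0.96 ± 0.13) and 5 of 17 fell, against 9.07% and 9.02% of all genes. Those that fell included DDIT4 (-1.19 ± 0.16), ATF4 (-0.43 ± 0.09) and STC2 (-3.04 ± 0.73). As labelled, ATF5 was at 0.26 ± 0.35, DDIT4 at -0.43 ± 0.42, ATF4 at -0.37 ± 0.11 and STC2 at -0.85 ± 0.88. After siMLX 0 of 18 were called by edgeR, against 3.72% and 4.69% of all genes, and 2 rose by DESeq2. In edgeR 5 rose with no filter or without siMLX replicate 1, and 1 rose without siMLX replicate 3. With the replicate number as a block 6 rose, and without siMLX replicate 2, 1 fell. Between siMondoA and siMLX 0 of 18 were called. Without siMLX replicate 2, 16 were higher in siMondoA, in a fit that called 2970 genes in all against 1673 with every library. The part of the stress state in the PCK2 rise was not tested.

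**Figure D5:**
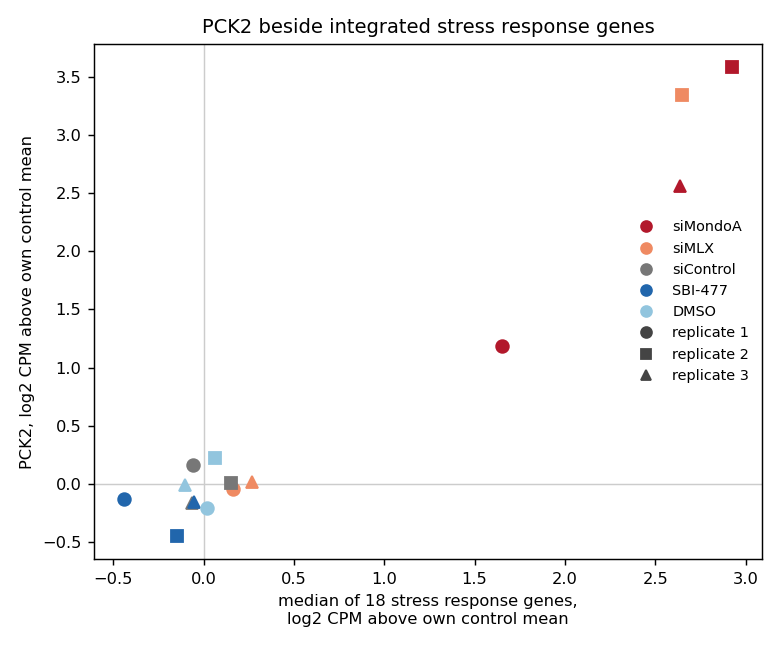
PCK2 (y axis) beside the median of 18 integrated stress response genes (x axis), both as log2 CPM above the control mean of the same experiment, 1 point per library. The 3 siMondoA libraries and siMLX replicate 2 lie at the upper right (x 1.65 to 2.92), and the other 11 libraries lie near 0 on both axes.

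Over the 15 libraries, centred on the control mean of their own experiment, the transcripts most like PCK2 among 10549 genes were MAP1LC3B (Pearson r 0.993), an autophagy protein, and PHGDH (0.989) and PSAT1 (0.989), the opening enzymes of serine synthesis; the last pair is also in the stress list. PHGDH was at 164, 553 and 327 CPM in siMondoA and 81.4, 367 and 87.8 CPM in siMLX, against 104, 98.9 and 97.5 CPM in siControl. These r values share library, depth and scaling, and 4 libraries carry nearly all of the spread. Reference sequence before the start site is shown for PCK2 and for this pair because they varied together: RefSeq windows on GRCh38.p14, 300 bases from 250 before to 50 after the start, written 5′ to 3′ on the plus strand, at chr14:24094061-24094360, chr1:119711684-119711983 and chr9:78296875-78297174. Capitals mark the only motif match found in them, TATAAA read on the opposite strand, 213 bases before the PHGDH start.
PCK2: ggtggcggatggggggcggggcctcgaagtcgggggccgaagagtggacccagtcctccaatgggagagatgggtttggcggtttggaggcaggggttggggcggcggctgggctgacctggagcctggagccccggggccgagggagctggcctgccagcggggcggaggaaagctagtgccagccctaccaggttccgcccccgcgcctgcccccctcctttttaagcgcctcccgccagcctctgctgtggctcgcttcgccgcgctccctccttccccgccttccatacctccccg
PHGDH: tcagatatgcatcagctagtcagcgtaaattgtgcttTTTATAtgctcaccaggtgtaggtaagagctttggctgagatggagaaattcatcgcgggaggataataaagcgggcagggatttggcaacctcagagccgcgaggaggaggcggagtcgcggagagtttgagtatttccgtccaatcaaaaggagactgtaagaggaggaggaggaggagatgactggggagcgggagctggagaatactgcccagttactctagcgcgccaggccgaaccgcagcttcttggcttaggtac
PSAT1: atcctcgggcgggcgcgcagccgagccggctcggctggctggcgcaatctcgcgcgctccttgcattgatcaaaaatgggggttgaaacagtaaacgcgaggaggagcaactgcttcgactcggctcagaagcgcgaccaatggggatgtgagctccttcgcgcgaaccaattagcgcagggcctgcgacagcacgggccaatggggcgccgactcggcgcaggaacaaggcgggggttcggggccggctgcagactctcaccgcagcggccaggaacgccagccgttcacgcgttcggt
Both strands were searched for the ATF4 element TGATGNAA, the E-box CACGTG, the cyclic AMP element core ACGTCA and the TATA box TATAAA; the E-box and the core share the letters ACGT. Of 35116 RefSeq promoter windows of this length, 3.617%, 7.256%, 7.982% and 11.53% hold each of these in that order. None was in the PCK2 or PSAT1 window, which says only that these letters are not in this stretch. The PCK2 window is 71.67% G and C, the PHGDH window 52.67% and the PSAT1 window 66%. PC had ACGTCA on the opposite strand 186 bases before 1 of its 3 start sites and FBP1 had no match. No window for PCK1 was at hand, so PCK1 was not searched for any of these motifs.

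The transcript most like PCK1 over the 15 libraries was PDE4B (r 0.978), a phosphodiesterase that breaks down cyclic AMP. It was at 9.06, 5.25 and 7.37 CPM in siMondoA, at 23.8, 18.4 and 26.6 CPM in siMLX, and at 23.3, 24.3 and 21.4 CPM in siControl. In the drug libraries it was at 8.24, 9.52 and 5.04 CPM in SBI-477 against 12.8, 8.13 and 12.3 CPM in DMSO. As for PCK1, its SBI-477 replicate 2 value was above that of DMSO replicate 2, and PDE4B was picked for such likeness. Its log2 fold change was -1.67 ± 0.21 in siMondoA and 0.00 ± 0.20 in siMLX, smaller than that of PCK1. SKAP2 (0.956), CD14 (0.947), B4GALNT4 (0.944) and PXYLP1 (0.940) followed, and GOSR2 (-0.961) and AGPAT2 (-0.951) were among the most opposed. These genes were picked for their likeness, so their values are descriptions.

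FBP1 was most like TSPAN8 (r 0.939), SLC1A7 (0.935) and ANK1 (0.930), and TSPAN8, a tetraspanin, was at 25.5, 8.82 and 11.9 CPM in siMondoA against 61.2, 31.9 and 28.9 CPM in siControl. PC had no close match: its nearest were ABHD4 (0.831), BCL6 (0.798) and POLL (0.796), over values that hardly varied. Among the 4 enzymes themselves, r was -0.59 between PCK1 and PCK2, 0.55 between PCK1 and FBP1, -0.73 between PCK2 and FBP1, and 0.00 between PCK1 and PC. The siRNA checks stood as labelled: MLXIP fell after siMondoA (-1.95 ± 0.17, edgeR adjusted p = 0.000118) and MLX after siMLX (-2.63 ± 0.18, edgeR adjusted p = 8.21e-05). TXNIP and ARRDC4, known MondoA targets, fell after siMondoA (-2.23 ± 0.60 and -2.08 ± 0.47, edgeR adjusted p = 0.0221 and 0.0105) and in drug replicates 1 and 3 (-1.58 ± 0.24 and -1.31 ± 0.20, edgeR adjusted p = 0.00389 and 0.00391). As labelled, the drug values were -0.71 ± 0.57 and -0.64 ± 0.40, neither called. After siMLX, TXNIP was at -1.43 ± 0.59 (edgeR adjusted p = 0.154) and ARRDC4 at -1.28 ± 0.45 (edgeR adjusted p = 0.102). Of the 5 genes in this list (MLXIP, MLX, MLXIPL, TXNIP and ARRDC4), 1 fell after siMLX, against 4.69% of all genes. Without siMLX replicate 2 or with the replicate number as a block, 3 fell. The median of the 5 genes stood at -1.92, -0.38 and -2.23 log2 units from the siControl mean in siMLX replicates 1, 2 and 3.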

How the data were processed

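Gene-level RNA-seq of 15 PSN-1 libraries was grouped by the titles in the labels. Per the labels' protocols, libraries were made with the Kapa system and sequenced as paired reads. Alignment and counting tools named in the submitters' processing notes are TopHat2 2.1.0 and HTSeq 0.6.1, beside bcl2fastq 1.8.4 and edgeR. The notes list hg38 and mm10; the tables hold human symbols. The authors deposited raw counts for 26485 genes in each experiment's table, per the file headers, and in the same tables their own log2 fold changes and p-values, whose tool is not stated. No column belonged to another study.

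Counts were tested with edgeR 4.0.16 in R 4.3.3: filterByExpr, TMM, quasi-likelihood test, Benjamini-Hochberg adjustment over all genes tested with a threshold of 0.05, 9 siRNA libraries in 1 fit and 6 drug libraries in another, and all 15 for the interaction. Log2 CPM used a prior count of 2. The 95% intervals are normal ones built from the SE, so they are narrower than the quasi-likelihood test implies. CPM per kilobase used the union of exons in GENCODE v29. DESeq2 1.42.0 was the alternative, and was also run to match the deposited columns over genes with a mean count above 20: with a replicate term for the siRNA experiment (2.21e-13 for siMondoA and 7.06e-13 for siMLX as median absolute differences), and without one for the drug, a setting chosen after seeing the data, as was the trial of 9 exchanges. Scripts were tested on simulated data. Other alternatives were RLE scaling, library totals, no filter, the compared libraries alone, a replicate block, prior count 0.5 and leaving out each library. Replicate numbers were taken to pair siMLX with siControl, where same-numbered deviations correlated at 0.268, 0.188 and 0.359, a hint from the data and not from the labels. The floor is 3 counts per library, 0.0984 to 0.267 CPM, and covers counting error only. Figures used matplotlib 3.10.9 under Python 3.11.15.

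The 4 enzymes, the gene lists and the tests were chosen with earlier results of these data known. Named are the enzymes in every library, per list and comparison up to 4 called genes with the smallest adjusted p and the list members below the filter, and the genes most like each enzyme; which of these appear was decided when writing, and some are not reported here. All 195 list genes matched, 1 of them by an older symbol. Of the other marker lists, adipocyte markers summed to 1.46 to 8.14 CPM, fibroblast markers to 77.2 to 355 CPM, leukocyte markers to 49.3 to 100.2 CPM and pancreatic acinar and islet markers to 3.25 to 80.9 CPM per library.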

Additional observations from a re-analysis of the deposited data

How the results depend on the processing

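With 3 libraries per group, calls near the threshold rest on single libraries. Leaving out each library in turn, PCK2 after siMondoA ranged from 2.04 to 3.18, after siMLX from -0.016 to 2.49, siMondoA against siMLX from 0.017 to 2.78, and in the difference between drug and siMondoA effects from -3.43 to -2.28. FBP1 after siMondoA ranged from -1.77 to -0.99 and after the drug from -0.14 to 0.40. PC ranged from -0.087 to 0.12 after siMondoA, -0.22 to 0.0099 after siMLX, -0.23 to 0.054 after the drug and -0.23 to 0.066 in the difference of effects; these changes of sign lie within its error. The genes called ranged from 1745 to 3884 after siMondoA, 254 to 833 after siMLX, 670 to 2970 for siMondoA against siMLX and 423 to 1680 for the difference of effects.

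FBP1 after siMondoA passed the threshold with no filter (-1.47), in DESeq2 (-1.49), in the 6 libraries compared (-1.47) and with the replicate block (-1.43, edgeR adjusted p = 0.0129). PCK2 in the difference of effects passed with no filter (-2.99, edgeR adjusted p = 0.0287). Without replicate 2 of both drug groups FBP1 turned to -0.33, and 2575 genes were called after the drug and 1595 in the difference of effects. DESeq2 called 1645 genes after siMLX, against 1094; the 6 libraries alone gave 706 for siMondoA against siMLX, against 1673. The cause of these shifts was not tested.

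Same-numbered deviations correlated at 0.136, 0.088 and 0.008 between siMondoA and siControl, and at 0.534, 0.447 and -0.109 between siMondoA and siMLX. In the drug groups they correlated at -0.243, -0.555 and -0.448. These values do not settle whether the numbers mark pairs. The deposited siMondoA fold changes were matched with a replicate term (median absolute difference 2.21e-13, and 0.00658 without it). Between siMLX and siControl the numbers were taken as pairs, and 3 of 3 libraries correlated best with their own number, in the other siRNA pairs 2 of 3, and in the drug groups 0 of 3. With the replicate block PCK2 after siMondoA was 2.36 (edgeR adjusted p = 0.0151). The block called 1815 genes after siMLX and 2606 for siMondoA against siMLX. After siMLX the block changed no call of PCK2, PC or FBP1, while the PCK2 value moved from 2.03 to 1.20. Using the length of the principal transcript in place of the exon union, added after seeing the data, the PCK1 share averaged 2.94% in siMondoA and 78.8% in siControl, against 3.30% and 80.7%. Over the values for the enzymes, PCK1 included with its direction only, and for the counts of genes, 274 held under an alternative, 29 counts moved by over 1.5 times, 9 changed sign, 8 newly passed and 5 no longer passed the threshold.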
